A study of Mus musculus with 8 samples.

Results

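The receptors that carry Wnt signals into the cell were examined in primary mouse cardiac fibroblasts given transforming growth factor beta 1 (TGF-β1), the cytokine that drives fibroblasts toward a matrix-producing state. The 10 genes are the Frizzled receptors Fzd1 to Fzd8 and the co-receptors Lrp5 and Lrp6, taken by name from the 56748 genes of the deposited count table. All 10 were found and all 10 passed the filter on low counts. Wild-type fibroblasts from the hearts of C57BL/6J pups aged 1 day formed 2 groups of 4 cultures, one untreated and one given TGF-β1 at 10 ng/mL for 48 h. The series design describes the replicates as isolations from different litters. Cells that attached during a short plating were kept, so cells of other types could remain. The protocol also names Mirin, an inhibitor of the MRN complex, which none of the 8 labels carries.

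Wnt proteins are lipid-modified ligands that bind the cysteine-rich outer domain of a Frizzled, a receptor that spans the membrane repeatedly, as G protein-coupled receptors do. In the β-catenin branch the ligand bridges the Frizzled to LRP5 or LRP6, and Dishevelled and Axin are drawn to the membrane, so that β-catenin is no longer degraded and enters the nucleus. Frizzleds also act without LRP5 or LRP6, in planar polarity and calcium signalling. In the heart, Wnt signalling takes part in development and is studied in fibroblast activation after injury. By sequence, Fzd1, Fzd2 and Fzd7 form one subfamily, Fzd5 and Fzd8 another, and Fzd3 and Fzd6 a further one, while Fzd4 groups with Fzd9 and Fzd10.

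The 8 libraries held 14340740 to 17176898 counts. Untreated replicate 1 stood apart in ribosomal RNA genes, which took 0.0332% of its counts against 1.09% to 2.56% in the other 7 libraries. The cells expressed the fibroblast markers at high levels, with Col1a1 at 6974 CPM (counts scaled to library size by TMM) in untreated and 10701 CPM in treated libraries and Col1a2 at 3763 and 5000.4 CPM. All 10 of these markers were tested, and 2 rose and 7 fell. For comparison with this list and the next ones, 17.6% of all genes tested rose and 18.5% fell. Markers of other cell types were also detected. The 8 epicardial and mesothelial markers summed to 1101 to 1150 CPM in untreated and 924 to 944 CPM in treated libraries, led by Upk3b and Upk1b, and 3 of 8 fell. The 10 cardiomyocyte markers, led by Tnnt2 and Myh6, summed to 729 to 797 CPM and to 401 to 479 CPM, and 8 of 10 fell. In the list of 10 endothelial markers the sum was 85.03 to 86.2 CPM and 79.2 to 87.1 CPM, with 2 higher and 2 lower. The 8 mural markers summed to 298 to 309 CPM and to 452 to 509 CPM, and 3 rose, Mcam among them, and 2 fell, Notch3 among them. Most of the rise of this sum came from Mcam, at 209 CPM untreated and 375 CPM treated. Notch3 went from 46.2 to 31.1 CPM. The 9 macrophage and blood markers summed to 189 to 223 CPM and to 166 to 198 CPM, mostly Lyz2, then Cd14, with Hba-a1 at 0 in every library. Of 6 Schwann cell and neuronal markers, Tubb3 made up most of the sum of 102 to 123 CPM and 163 to 187 CPM. The 10 cell division markers, led by Top2a and Mki67, all fell, from a summed 356 to 391 CPM to 56.3 to 69.0 CPM. Their part in the receptor changes below was not tested. In cultures sequenced whole, a change in the number of cells that carry a receptor and a change in its RNA per cell cannot be told apart.

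TGF-β1 shifted the receptor set in both directions. Fzd6, Fzd2 and Fzd5 rose, Fzd1, Fzd4, Fzd7, Fzd8 and Lrp5 fell, and Fzd3 and Lrp6 did not pass the test. In all, 8 of 10 members were called, 3 higher and 5 lower (adjusted p under 0.05 in the quasi-likelihood test of edgeR, over all 13960 genes tested). Over all genes tested 36.0% were called, 17.6% higher and 18.5% lower. Among the 9564 genes at or above the level of Fzd3, the lowest member at 8.38 CPM, 41.6% were called. The median log2 fold change was −0.10 over the members and 0.01 over all genes tested. The 2 groups of libraries did not overlap for the same 8 members, against 33.9% of all genes tested, 16.5% with the treated group above and 17.4% with it below. With library totals in place of scaling factors the split over all genes went from 2451 higher and 2579 lower to 1301 and 3673, and that of the members stayed at 3 and 5.

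**Figure D1:**
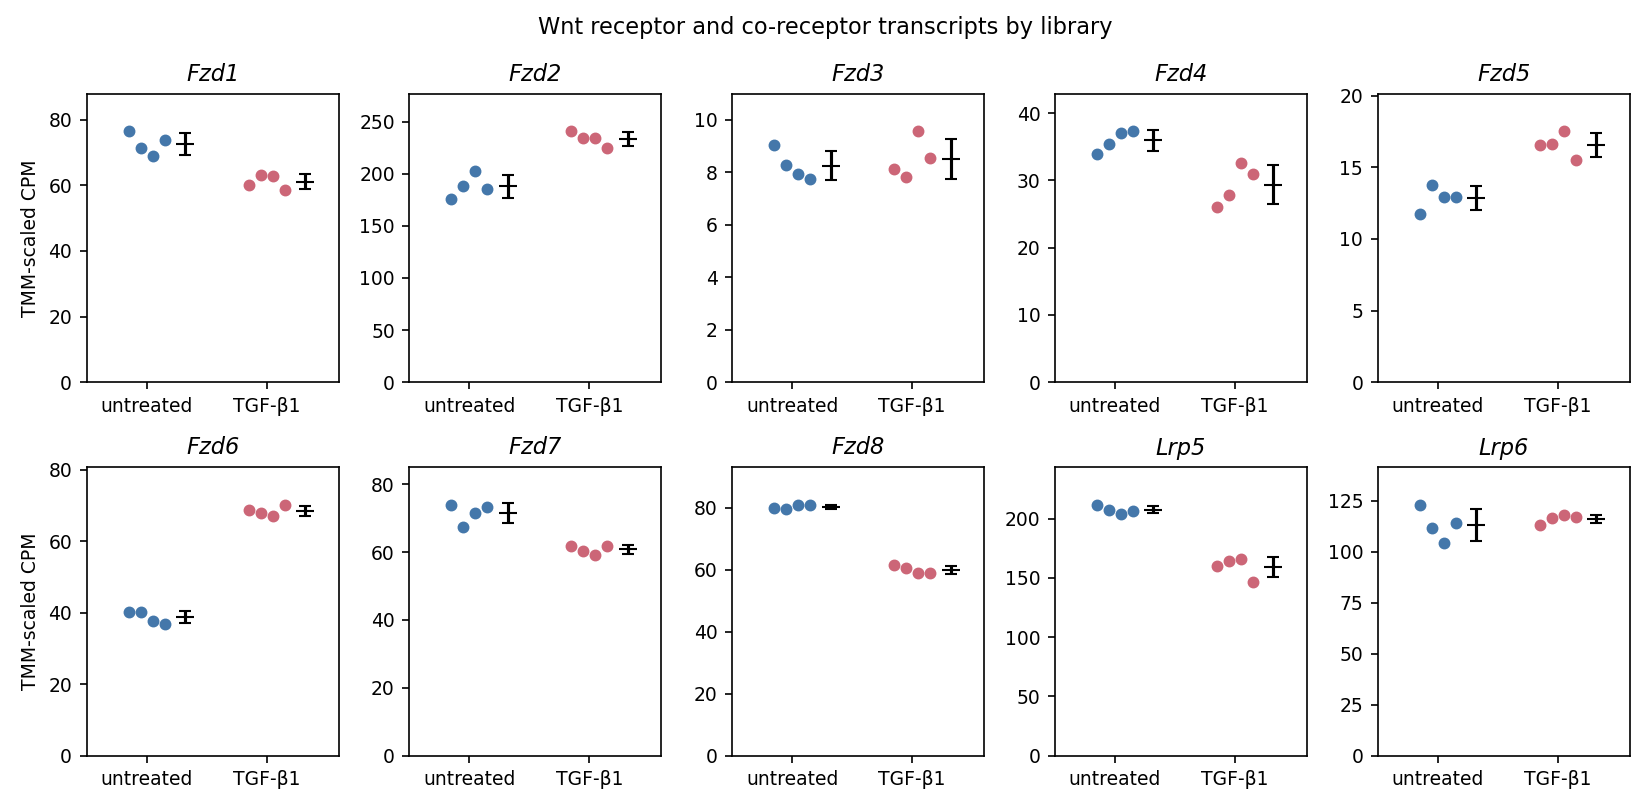
Normalised counts of the 10 receptor and co-receptor genes in each library (vertical axes, TMM-scaled CPM, each starting at 0), with untreated libraries in blue and TGF-β1 libraries in red. Black bars give the mean and SD of 4 libraries. For Fzd6 the treated libraries lie at 67.1 to 70.3 CPM and the untreated ones at 36.8 to 40.2 CPM, while the groups overlap for Fzd3 and Lrp6.

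Fzd6 changed the most of the 10. It encodes a Frizzled known for hair patterning and tissue polarity. The gene (ENSMUSG00000022297) lies on chromosome 15, 38869429 to 38901583, plus strand, in the GRCm39 coordinates of the file. The untreated libraries 1 to 4 gave 40.2, 40.2, 37.7 and 36.8 CPM, and the treated ones 68.8, 68.0, 67.1 and 70.3 CPM. Every treated library was above every untreated one by a wide gap, and the treated ones were close to each other. The log2 fold change was 0.82 ± 0.05 (SE), or 1.77-fold (edgeR adjusted p = 1.30e-11). By p-value it ranked 257 of the 13960 genes.

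Its subfamily partner Fzd3, a receptor of axon guidance, was at a much lower level and was not called. It gave 9.03, 8.29, 7.95 and 7.75 CPM without and 8.11, 7.81, 9.57 and 8.53 CPM with TGF-β1. The groups overlapped throughout. The log2 fold change was 0.04 ± 0.11 (95% interval −0.20 to 0.28, edgeR adjusted p = 0.81), an interval that leaves out the change of Fzd6. Fzd3 rests on only 113 to 143 counts a library, the fewest of the 10.

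Fzd2 was the most abundant Frizzled and rose. It is a receptor for Wnt5a and also for ligands of the β-catenin branch. The gene (ENSMUSG00000050288) is a single exon on chromosome 11, 102495222 to 102498884, plus strand. Its level went from 176.1, 188.2, 202.6 and 185.1 CPM to 240.9, 234.3, 234.0 and 225.1 CPM. The lowest treated library stood above the highest untreated one, which was replicate 3. The rise was 0.31 ± 0.04 on the log2 scale, or 24.2% (edgeR adjusted p = 3.52e-06).

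Fzd1 and Fzd7, the close relatives of Fzd2, moved the other way. Fzd1 (ENSMUSG00000044674, chromosome 5, 4803839 to 4808035, minus strand) is an intronless receptor gene of the β-catenin branch. It gave 76.5, 71.3, 68.9 and 73.9 CPM in untreated and 59.95, 63.2, 62.9 and 58.5 CPM in treated libraries. Fzd7 (ENSMUSG00000041075, chromosome 1, 59521583 to 59526114, plus strand), a receptor known from stem cell maintenance, gave 74.0, 67.3, 71.6 and 73.2 CPM and then 61.8, 60.4, 59.0 and 61.9 CPM. In both genes all 4 treated libraries lay below all 4 untreated ones. Fzd1 fell by 0.25 on the log2 scale (SE 0.05, edgeR adjusted p = 0.00029) and Fzd7 by 0.23 (SE 0.05, edgeR adjusted p = 0.000388). The 95% intervals, −0.35 to −0.15 and −0.33 to −0.14, nearly coincide.

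Fzd8 and Fzd5, which share a subfamily, also went opposite ways. Fzd8 (ENSMUSG00000036904, chromosome 18), a receptor much used in structural studies of Wnt binding, gave 79.7, 79.5, 80.7 and 80.9 CPM and then 61.4, 60.4, 58.8 and 58.8 CPM. The untreated libraries had a coefficient of variation of 0.905%, the lowest of any member and group. Picked as the lowest and resting on 4 libraries, it says little about the gene. It fell by 0.42 (SE 0.04, edgeR adjusted p = 5.02e-08), or by 25.4%. Its interval, −0.51 to −0.33, overlaps that of Lrp5 at −0.47 to −0.30. Fzd5 (ENSMUSG00000045005, chromosome 1, 64769717 to 64776910, minus strand), which is needed for blood vessel growth in the yolk sac, had 177 to 260 counts a library, the fewest after Fzd3. Its 11.8, 13.8, 12.9 and 12.9 CPM became 16.6, 16.6, 17.5 and 15.5 CPM. The groups were apart, and the rise was 0.36 ± 0.09 (edgeR adjusted p = 0.00219).

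Fzd4 fell. It encodes the receptor for norrin, a ligand outside the Wnt family that patterns retinal vessels, and it is much expressed in endothelium. The gene (ENSMUSG00000049791) lies on chromosome 7, 89053563 to 89062342, plus strand. The level was 34.0, 35.5, 37.1 and 37.3 CPM in untreated and 26.1, 27.9, 32.7 and 31.0 CPM in treated libraries. The treated libraries were the most scattered of all members, at a coefficient of variation of 10.1%, and the gap to the untreated ones was narrow. The log2 fold change was −0.29 ± 0.07 (edgeR adjusted p = 0.00217). Of the endothelial markers in the same libraries, Tek fell by 0.22 (SE 0.07) and Emcn, at −0.07, was not called, while the other called markers went both ways. Pecam1 and Cdh5 rose by 0.35 ± 0.10 and 0.30 ± 0.09, and Egfl7 fell by 0.56 (SE 0.17, edgeR adjusted p = 0.0116), all 3 named after their values were seen. Their part in the fall of Fzd4 was not tested. Tspan12, the partner of Fzd4 in norrin signalling, gave 39.5 CPM untreated and 40.7 CPM treated and was not called (edgeR adjusted p = 0.58, named after its value was seen).

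Of the co-receptors only Lrp5 was called, and it fell. LRP5 and LRP6 are single-pass relatives of the low density lipoprotein receptor, and LRP5 is best known for its control of bone mass. Lrp5 (ENSMUSG00000024913, chromosome 19, 3634828 to 3736564, minus strand) gave 211.8, 207.4, 204.3 and 206.7 CPM without and 159.8, 164.5, 165.9 and 146.6 CPM with TGF-β1. The untreated libraries lay together and the treated ones, lowest in replicate 4, were all below them. The fall was 0.38 on the log2 scale (SE 0.04, edgeR adjusted p = 1.32e-07), or 23.3%.

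Lrp6 (ENSMUSG00000030201, chromosome 6, 134423439 to 134543928, minus strand), which is required for most β-catenin signalling in the embryo, gave 123.2, 111.5, 104.5 and 114.1 CPM and then 113.1, 116.6, 117.9 and 117.2 CPM. All 4 treated libraries fell inside the range of the untreated ones. Its log2 fold change was 0.04 ± 0.05 (95% interval −0.06 to 0.13, edgeR adjusted p = 0.582).

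The balance between the co-receptors was also read within each library, where no scaling between libraries enters. The log2 ratio of Lrp5 to Lrp6, in counts per kb of gene length, was 1.27, 1.39, 1.46 and 1.35 in untreated libraries and 0.99, 0.99, 0.98 and 0.81 in treated ones. All 4 treated ratios were below all 4 untreated ones. The mean went from 1.36 ± 0.08 to 0.94 ± 0.09 (SD, n = 4 and 4), a difference of −0.42 (exact two-sided permutation test, p = 0.0286, the smallest that the 70 assignments allow). In linear terms Lrp5 transcripts were 2.58 times as frequent as those of Lrp6 without and 1.92 times with TGF-β1, and this size depends on the gene lengths used.

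**Figure D2:**
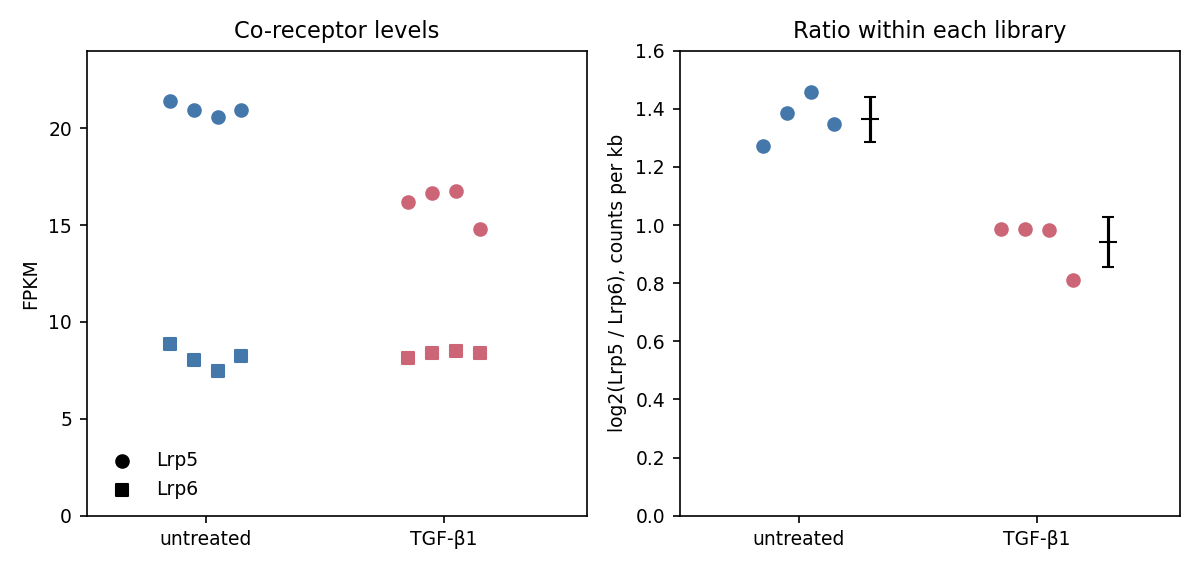
Left, deposited FPKM of Lrp5 (circles) and Lrp6 (squares) in each library, from 0. Right, the log2 ratio of Lrp5 to Lrp6 in counts per kb within each library, with mean and SD of 4 libraries in black. Lrp5 drops from 20.6 to 21.4 FPKM to 14.8 to 16.7 FPKM while Lrp6 lies at 7.49 to 8.86 FPKM and 8.15 to 8.48 FPKM, and the ratio is lowest in treated replicate 4.

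**Figure D3:**
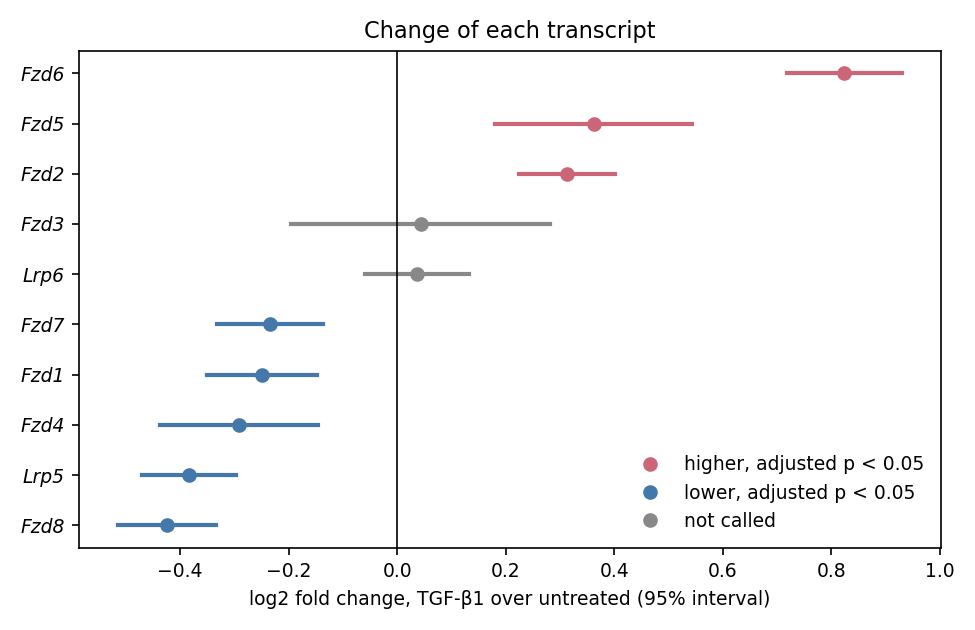
The log2 fold change of each member, TGF-β1 over untreated (horizontal axis), with its 95% interval from the edgeR fit of 4 against 4 libraries. Red marks members called higher, blue those called lower and grey those not called. Fzd6 stands to the right at 0.82, and the intervals of Fzd3 and Lrp6 span 0.

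Levels can be compared between genes only per length, for which the deposited FPKM (fragments per kb of gene length, with 1 scaling constant per library) was used. Without treatment the order was Fzd2 at 50.5 ± 2.88, Lrp5 at 21.0 ± 0.33, Fzd1 at 17.03 ± 0.79, Fzd7 at 15.5 ± 0.65 and Fzd8 at 13.2 ± 0.13 FPKM (SD, n = 4). Lrp6 at 8.15 ± 0.57, Fzd6 at 7.91 ± 0.35, Fzd4 at 5.27 ± 0.23, Fzd5 at 1.83 ± 0.12 and Fzd3 at 0.634 ± 0.043 FPKM followed. In this order the ranges of neighbours overlapped only for Lrp6 and Fzd6. With TGF-β1 Fzd2 reached 62.7 ± 1.83 FPKM, and Fzd6 at 13.998 ± 0.27 FPKM moved past Lrp6, Fzd8 and Fzd7. It then overlapped with Fzd1 at 14.3 ± 0.54 FPKM, and Fzd1 with Lrp5 at 16.1 ± 0.90 FPKM. The order changed in part with the gene length used. With the length of the Ensembl canonical transcript in GENCODE M39, chosen after seeing the data, Fzd7 stood above Fzd1 in both groups (24.2 against 17.3 without treatment, in CPM per kb). Lrp5 then reached 40.1, since that transcript has 5169 bases against a gene length of 9738 in the file. With TGF-β1 and the canonical lengths, Fzd6 at 15.8 CPM per kb stayed below Fzd7 at 20.5 and moved past Fzd1 at 14.6. Fzd2 led and Fzd3 came last under both lengths.

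The Frizzled genes Fzd9 and Fzd10 were at low counts, with 2 to 13 counts a library for Fzd9 and 0 to 4 for Fzd10, and neither was tested.

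Fzd2 and Fzd6 took larger shares of the summed Frizzled transcripts after TGF-β1, and Fzd1, Fzd7 and Fzd8 smaller ones. The FPKM of the 8 genes summed to 109.9, 111.0, 114.6 and 112.0 without and 123.3, 121.8, 121.7 and 118.8 with TGF-β1. All treated sums were above the untreated ones and the ratio of the means was 1.09. With library totals as the scale, chosen after seeing the data, the ratio was 1.03 and the groups overlapped, at 114.9 to 118.6 and 118.1 to 121.0 CPM per kb, so the rise of the sum depends on the scaling. Shares within a library do not depend on the scaling, but they do depend on the gene lengths used. With canonical transcript lengths Fzd7 held a larger share than Fzd1 in both groups. The shares here are by FPKM. Fzd2 supplied 45.1% ± 1.82 of the pool in untreated and 51.7% ± 0.72 in treated libraries (SD, n = 4 and 4). Fzd6 went from 7.07% ± 0.42 to 11.5% ± 0.36. The share of Fzd1 went from 15.2% ± 0.94 to 11.8% ± 0.39, that of Fzd7 from 13.9% ± 0.65 to 10.9% ± 0.32 and that of Fzd8 from 11.8% ± 0.18 to 8.11% ± 0.12. The shares of the groups overlapped for Fzd3 and for no other of the 8 genes. The subfamily of Fzd1, Fzd2 and Fzd7 taken whole held 74.2% ± 0.49 of the pool before and 74.3% ± 0.55 after, with overlapping groups. Shares are a description over chosen genes and carry no test.

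**Figure D4:**
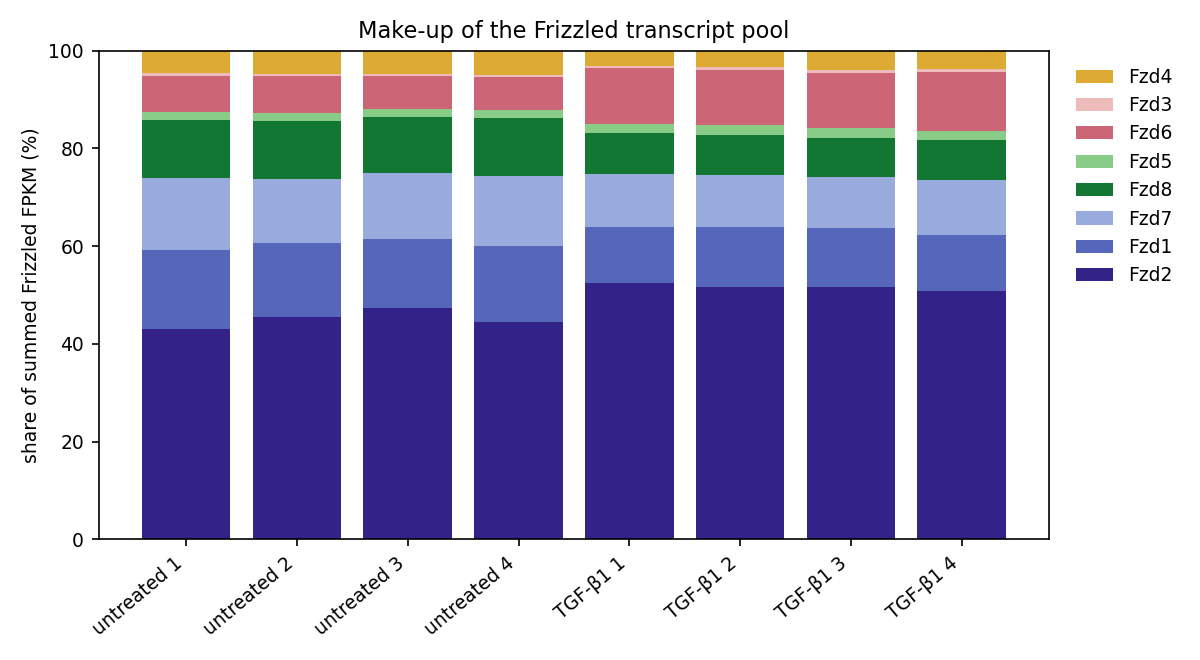
Share of each Frizzled gene in the summed FPKM of Fzd1 to Fzd8 (vertical axis, percent), 1 bar per library, with subfamilies in related colours. The 3 blue segments of Fzd2, Fzd1 and Fzd7 end near 74% in all 8 bars, while the Fzd2 segment is taller and the Fzd1, Fzd7 and Fzd8 segments shorter in the TGF-β1 bars.

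Most Frizzled genes are compact. Fzd1, Fzd2 and Fzd8 have 1 exon in the canonical transcript of GENCODE M39, whereas Fzd3 and Fzd6 have 7 and Lrp5 and Lrp6 have 23. In the GENCODE M39 models, which for Fzd6 and Fzd7 are longer than those that were counted (6859 and 5868 exonic bases against 4818 and 4532), some exonic bases lie under exons of genes on the opposite strand. The share was 18.1% for Fzd5, 13.3% for Fzd6, 12.0% for Fzd7 and at most 4.18% for the others. In the coordinates of the count table, Gm38058 shares 1512 bases of span with Fzd5 and Gm26704 shares 152 with Fzd6, while Gm26813 shares none with Fzd7. No source used here states how the counting treated strand. Gm38058 had 0 to 3 counts a library and Gm26704 0 to 8, against at least 177 for Fzd5 and 560 for Fzd6. How reads in shared bases were assigned is not known. These counts therefore do not show whether the overlap affected Fzd5 or Fzd6.

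Promoter sequence was looked up in the RefSeq table of build GRCm38.p6, which held 4 of the 10 members (Fzd1, Fzd4, Fzd5 and Fzd7). Each was found once on its chromosome and strand in the GRCm39 genome, and coordinates are given there. The windows run from 250 to 51 bases before the RefSeq start. Those of Fzd1 and Fzd7, relatives that fell alike, and of Fzd5, which rose, are shown 5′ to 3′ on the strand of the gene. Capitals mark the GC box, GGGCGG or its complement CCGCCC, the binding motif of SP family factors.
Fzd1, chr5:4808267-4808466, minus strand: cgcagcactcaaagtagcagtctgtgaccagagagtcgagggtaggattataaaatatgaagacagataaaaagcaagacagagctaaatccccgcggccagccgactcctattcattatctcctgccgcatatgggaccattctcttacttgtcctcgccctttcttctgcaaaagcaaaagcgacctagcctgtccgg
Fzd7, chr1:59521056-59521255, plus strand: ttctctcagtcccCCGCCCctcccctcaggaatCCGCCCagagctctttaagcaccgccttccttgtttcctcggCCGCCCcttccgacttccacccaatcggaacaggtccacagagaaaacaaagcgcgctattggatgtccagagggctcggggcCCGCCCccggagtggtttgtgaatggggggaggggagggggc
Fzd5, chr1:64776960-64777159, minus strand: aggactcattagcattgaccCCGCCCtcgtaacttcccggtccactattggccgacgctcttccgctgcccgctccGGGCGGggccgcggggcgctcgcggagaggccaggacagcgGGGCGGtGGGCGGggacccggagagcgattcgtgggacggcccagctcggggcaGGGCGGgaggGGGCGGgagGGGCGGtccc
The windows of Fzd7 and Fzd1, which both fell, differ. Fzd7 holds 4 GC boxes, Fzd5 holds 7 and Fzd4 holds 4, while Fzd1 holds none, against 24.6% of the 32851 windows of the table with at least 1. The GC content is 63.5% in Fzd7, 75.0% in Fzd5 and 49.0% in Fzd1, with a median of 51.5% over all windows. In the window of Fzd4, which fell, it is 71.5%. A SMAD box, CAGAC or GTCTG, the motif of the SMAD factors that act below TGF-β receptors, occurs once in Fzd1 and not in the other 3 windows, against 35.8% of all windows. The TCF/LEF motif ATCAAAG or CTTTGAT is in none of the 4 and in 2.64% of all. These matches describe letters in a short window, and no binding was measured. The RefSeq starts of Fzd1 and Fzd7 lie 181 and 277 bases upstream of the gene start in the file.

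Other genes of the pathway were taken from 9 lists, which hold 100 different genes, of which 68 were tested. Of these, 13 rose and 24 fell, and the median log2 fold change was −0.07. The shares over all genes tested, 17.6% higher and 18.5% lower, stand beside the counts of each list below. Among other receptors, the Frizzled relative Smo, the transducer of Hedgehog signals, fell by 0.14 (SE 0.04, edgeR adjusted p = 0.00948). In the list of alternative receptors and co-receptors 1 of 8 tested rose and 3 fell. Ror1, a tyrosine kinase receptor of Wnt5a, rose by 0.35 ± 0.10 from 11.9 CPM, with overlapping groups. Adgra2 and Reck, which together present Wnt7 to Frizzled in brain vessels, fell by 0.45 and 0.24 (SE 0.05 and 0.05). Ptk7, a co-receptor in planar polarity, was at 323 CPM and fell by 0.13 (edgeR adjusted p = 0.0196), a call that was lost without untreated replicate 2 (adjusted p = 0.0559) and without treated replicate 4 (adjusted p = 0.0793).

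Genes that bring receptors to the membrane or remove them fell in 3 of 8 tested cases and rose in 1. The shares over all genes tested were 18.5% lower and 17.6% higher. Mesd, the chaperone that LRP5 and LRP6 need to leave the endoplasmic reticulum, rose by 0.14 ± 0.04 (edgeR adjusted p = 0.00869). With library totals its adjusted p was 0.311. Rspo1, a secreted protein that protects Frizzleds from removal, was at 28.2 ± 1.61 CPM in untreated and 14.4 ± 2.35 CPM in treated libraries (SD, n = 4 each). It fell by 0.98 (SE 0.09, edgeR adjusted p = 1.88e-08). Shisa2, which holds immature Frizzleds back, fell by 0.89 (SE 0.13) from 8.90 CPM, and the low Rspo2 fell by 2.07 (SE 0.41) from 1.08 CPM. Rspo2 had 13 to 24 counts a library untreated and 2 to 5 treated, so it passed the count filter only through the untreated group. Znrf3, a ubiquitin ligase that removes Frizzleds, gave 9.01 and 7.71 CPM and was not called (edgeR adjusted p = 0.136, named after its value was seen).

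Inside the cell most transducers did not pass the test, like most of all genes tested. Of 15 cytoplasmic genes, 3 rose and 1 fell, with a median of −0.01. The shares over all genes tested were 17.6% higher and 18.5% lower. Csnk1g1, a kinase of the family that phosphorylates LRP6, rose by 0.32 ± 0.05 (edgeR adjusted p = 3.17e-05). Gsk3b rose by 0.18 ± 0.04 and Csnk1a1 by 0.10 ± 0.03, and Dvl2, a Dishevelled gene, fell by 0.19 (SE 0.06). With library totals 1 rose and 5 fell, beside 1301 and 3673 of all 13960 genes. Gsk3b and Csnk1a1 were then no longer called (adjusted p = 0.112 and 0.754). Csnk1a1 also lost its call with upper-quartile scaling (adjusted p = 0.0549), with no count filter (adjusted p = 0.0504) and without 5 of the libraries left out singly. Of 8 nuclear effectors tested, 3 fell and 5 were not called, with Tcf7l1, a mainly repressive TCF, down by 0.50 (SE 0.06). Bcl9 fell by 0.37 (SE 0.09), and Tcf7 fell by 1.498 (SE 0.32) from 1.44 CPM. Tcf7 had 20 to 26 counts a library untreated and 6 to 9 treated, so it passed the count filter only through the untreated group.

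Targets of β-catenin that feed back on the pathway fell in 3 of 6 tested cases and rose in 1. Tcf7, already counted among the nuclear effectors, is 1 of the 3 that fell. Axin2 and Znrf3, which were not called, also belong to earlier lists. Among all genes tested 18.5% fell and 17.6% rose. Nkd1, an inhibitor of Dishevelled, was at 21.97 ± 3.10 CPM before and 12.6 ± 1.35 CPM after (SD, n = 4 each). It fell by 0.81 (SE 0.10, edgeR adjusted p = 1.39e-06). Its relative Nkd2 rose by 0.42 ± 0.06, and Apcdd1, a membrane inhibitor of Wnt, fell by 0.33 (SE 0.07) with overlapping groups. Axin2, the target most used as a readout, was at 1.34 and 0.771 CPM and was not called (edgeR adjusted p = 0.0591, named after its value was seen).

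Of 12 planar polarity genes tested, 7 fell, against 18.5% of all genes tested, and 5 were not called. The median was −0.34. Daam2, a formin downstream of Dishevelled, was at 29.0 ± 1.65 CPM in untreated and 11.2 ± 0.60 CPM in treated libraries (SD, n = 4 each). It fell by 1.38 (SE 0.08, edgeR adjusted p = 3.23e-12). Prickle1 and Prickle2, cytoplasmic core components, fell by 0.68 and 0.35, and the cadherin gene Dchs1 fell by 0.46 (SE 0.08, 0.05 and 0.06). Fzd6, the Frizzled best known from this branch, rose in the same libraries.

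On the outside, 7 of the 9 Wnt ligand genes tested rose, against 17.6% of all genes tested, and 1 fell (median 0.53). The other genes of this list of 19 were not tested. Wnt9a rose by 1.09 ± 0.08, Wnt2 by 1.10 ± 0.20 from 2.56 CPM, Wnt4 by 0.53 ± 0.08 and Wnt11 by 0.39 ± 0.07. The secreted antagonists bind Wnts or, in the case of most Dickkopf proteins, the LRP co-receptors. Of the 12 in the list 4 were tested, and 3 of these fell, against 18.5% of all genes tested. Sfrp2 was at 36.5 ± 3.12 CPM in untreated and 7.90 ± 0.36 CPM in treated libraries (SD, n = 4 each). It fell by 2.21 (SE 0.08, edgeR adjusted p = 4.43e-15). Sfrp1, whose Frizzled-like domain binds Wnts, fell by 0.60 and Dkk3, a divergent Dickkopf, by 0.69 (SE 0.05 and 0.05). In the same libraries as these lists, the markers of cell division and most of those of cardiomyocytes fell, and mural markers went both ways. Their values are given above, and the part of these markers was not tested.

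**Figure D5:**
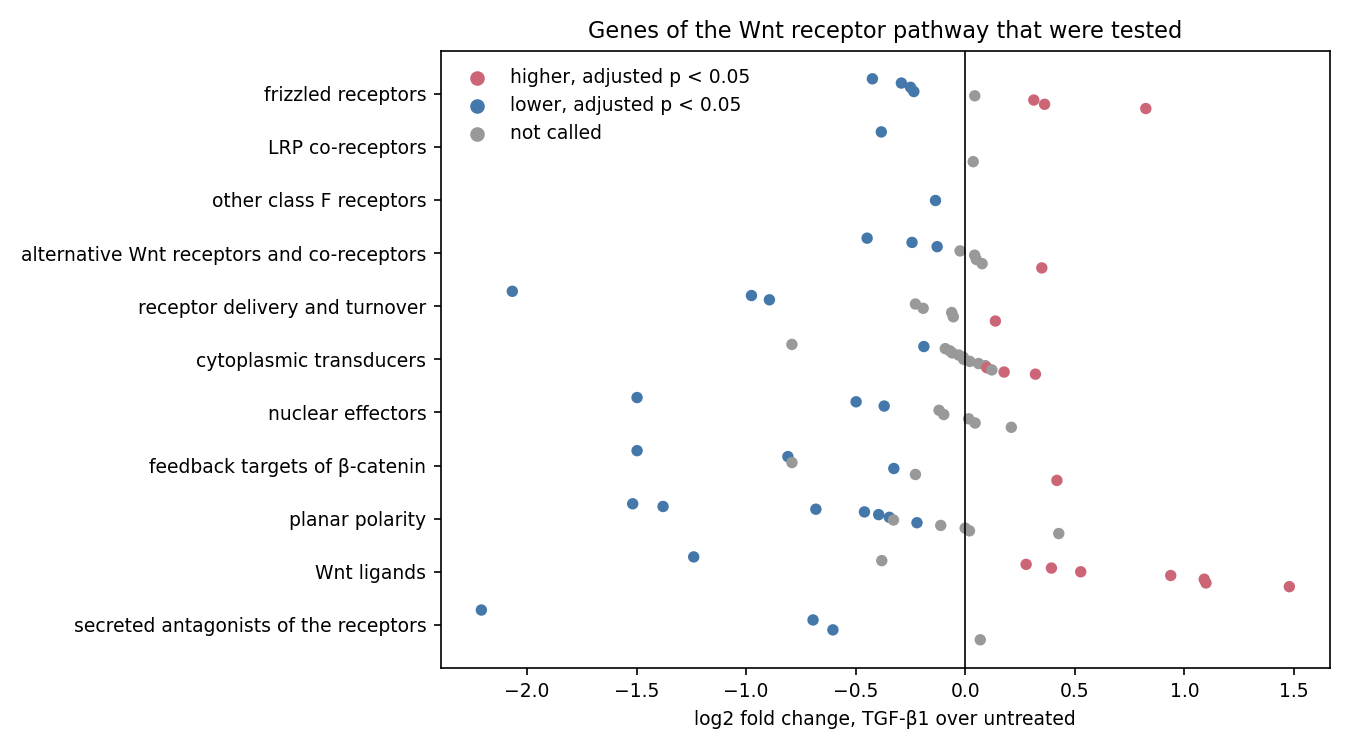
Log2 fold change of every tested gene in the Frizzled and LRP lists and the 9 other lists (horizontal axis), TGF-β1 over untreated, 4 libraries a group, each point 1 gene. Red points were called higher, blue ones lower and grey ones were not called. Wnt ligands lie mostly to the right (7 of 9 higher), and planar polarity genes mostly to the left (7 of 12 lower), and the Frizzleds fall on both sides. Among all genes tested 17.6% were higher and 18.5% lower.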

How the data were processed

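RNA of 8 cultures was sequenced after oligo(dT) enrichment, per the labels' protocols. HISAT2, featureCounts, Subread and CASAVA are listed in the submitters' processing notes, with no versions. The deposited read counts per gene are whole numbers and were not normalized. The deposited FPKM values equal the count per gene length times 1 constant per library. Its denominator was 1.03 to 1.07 times the library total in untreated and 0.971 to 0.994 times in treated libraries. The TMM factors went the same way, at 1.02 to 1.05 and 0.958 to 0.979. FPKM is therefore not a separate check on the scaling. The processing notes name GRCm38 and the series design mm39. The members' coordinates in the file overlap the same genes in GENCODE M39 (GRCm39).

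Genes were kept by filterByExpr (minimum count 10, minimum total 15), scaled with TMM and tested with the edgeR 4.0.16 quasi-likelihood test (R 4.3.3) in a model of group alone, with Benjamini-Hochberg adjustment over the 13960 genes tested. Each SE is the size of the log2 fold change divided by √F. The alternatives, with limma 3.58.1 and DESeq2 1.42.0 among them, are given under the closing section. The test was run on simulated counts, where it missed part of the changes at each fold simulated, most at the smallest. The median squared difference between replicate pairs was 2.07 to 3.17 times that of sampling noise, so no pair was counted as 1 sample. The design gives different litters, and p-values measure only the spread between these samples.

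All members were named. Of each pathway list up to 4 called genes with the smallest p were named (Fzd9, Fzd10 and those marked so were added), and of each marker list the 2 most abundant, of which 1 is not reported here. Members and lists were chosen with earlier results of these data known.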

Additional observations from a re-analysis of the deposited data

Results flagged for a closer look

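The groups of 4 libraries were searched for a library far from the other 3 (Dixon's test at its 95% critical value), for each member's CPM, the Lrp5 to Lrp6 ratio and the Frizzled pool. Of 24 such groups 1 passed, and chance alone gives about 5% of groups. The log2 ratio of Lrp5 to Lrp6 was 0.81 in treated replicate 4, against 0.98 to 0.99 in the other treated libraries. Its Lrp5 level was 146.6 CPM, against 159.8 to 165.9 CPM in the others, and its Lrp6 level of 117.2 CPM lay among theirs. Without this library the difference between groups was −0.38 in place of −0.42.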

How the results depend on the processing

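The 3 higher and 5 lower members kept direction and call under all 17 alternatives, which were DESeq2, limma on log2(FPKM + 1) and log2(FPKM + 0.1), no count filter or one of 1 CPM in 4 libraries, scaling by RLE, by upper quartile or by library totals, the replicate number as a block, and each library left out in turn. Fzd6 ranged from 0.74 to 0.84, Fzd2 from 0.23 to 0.35, Lrp5 from −0.46 to −0.34 and Fzd8 from −0.50 to −0.39. The 2 members that were not called changed sign. Fzd3 was −0.037 with library totals and −0.015 without treated replicate 3, and Lrp6 was −0.045 with library totals and −0.0028 without untreated replicate 3. With single libraries left out they ranged from −0.015 to 0.083 and from −0.0028 to 0.073. The cause was not tested. Library totals moved the median of all genes by −0.08, and the count of all genes called higher from 2451 to 1301. Same-numbered libraries did not deviate together (correlations −0.17, −0.13, 0.0095 and 0.10 over 5725 genes). No library correlated best with its own number, so the numbers were not taken to pair the samples. Untreated 1, 2, 3 and 4 correlated best with treated 2, 1, 4 and 3 (0.24, 0.24, 0.12 and 0.13). Whether litters were shared under other numbers was not tested. With the replicate block 3 members were higher and 5 lower, Fzd6 was at 0.82, and of the 100 other pathway genes 12 rose and 24 fell. With that block 2416 of all 13960 genes rose and 2555 fell. The Lrp5 to Lrp6 difference was −0.45 to −0.38 with each library left out, the pool ratio 0.11 to 0.13 on the log2 scale, or 0.10 with canonical transcript lengths and 0.037 with library totals, both added after seeing the data. The low counts of Fzd3 and Fzd5 limit their precision.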
